A study of Mus musculus with 22 samples.

Results

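Both arms of the mouse miR-532 hairpin were followed in fallopian tubes, tumor deposits and plasma of a genetically engineered model of high-grade serous cancer. Every probe on the panel whose name begins with mmu-miR-532 was taken, which gave 2 of the 566 mouse miRNA probes, mmu-miR-532-5p and mmu-miR-532-3p, written below without the species prefix. The pair was chosen from the level of miR-532-5p in the tissues, its difference between control tubes, induced tubes and metastases, and its ratio to the other arm. Those values are therefore given as a description with no test, and only the plasma comparison and the neighbouring miRNAs were tested.

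The study asked which miRNAs differ as tubal tumors arise and spread, using the NanoString nCounter mouse miRNA assay, in which a fluorescent barcode is counted for each ligated miRNA molecule captured by its probe. In these mice a Pax8 promoter, active in the secretory cells of the tube, drives a doxycycline-inducible Cre recombinase that acts on floxed alleles, among them Brca1 or Brca2. The 22 samples were 5 control tubes (CT), 5 tubes after induction (FT), 5 metastases (M), 3 plasma samples of control mice (CS) and 4 plasma samples of tumor-bearing mice (TS). Tissue RNA was made from whole tubes or tumor pieces, so that fewer cells of a type and less RNA per cell cannot be told apart.

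All CT tubes were uninduced. CT1 and CT3 were Brca1 fl/fl and CT2 was Brca1 fl/+, while CT4 was Brca2 fl/fl and CT5 Brca2 fl/+. Among the induced tubes FT2 was Brca1 -/-, FT4 was Brca2 -/-, and FT1, FT3 and FT5 were Brca2 -/+. Of the metastases M1 and M3 were Brca2 -/-, M2 and M6 were Brca1 -/+, and M4 was Brca2 -/+. M6 was labelled as an ovarian tumor and the others as peritoneal. The study's genotype list sets plasma CS2, CS3 and CS4 beside CT2, CT3 and CT4, and plasma TS1, TS2, TS3 and TS4 beside FT2, FT3, FT4 and FT5, taken here as the same mice. TS samples carry both plasma and serum in their labels and are called plasma here. Genotypes thus differed within each group, and induction and genotype cannot be told apart. Ages are not given in the sources used here.

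A miRNA hairpin is cut by Drosha and Dicer into a short duplex, of which 1 strand is usually kept by an Argonaute protein and the other is mostly degraded. The strand from the 5′ side of the hairpin is called the 5p arm and that from the 3′ side the 3p arm, and bases 2 to 8 of the kept strand, the seed, direct most of its pairing with target mRNAs. Mir532 lies with Mir188, Mir362, Mir501 and Mir500 in a cluster within Clcn5, a chloride/proton exchanger gene, and clustered miRNAs can be cut from a shared primary transcript while their mature levels differ.

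On GRCm38.p6 the RefSeq table placed all 5 hairpins on the minus strand of the X chromosome inside the span of Clcn5, chrX:7153810-7319358. Mir532 occupied chrX:7248402-7248497 and was the most upstream in the direction of transcription. Mir188 lay 345 bases away, Mir362 6355, Mir501 7050 and Mir500 10627. The table gives gene spans only and does not say which exon or intron holds them.

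The mature sequences below are those of miR-532-3p and of the neighbours measured by a probe of the same name, shown because they tell how far a neighbour could be read in place of a member. RNA is written 5′ to 3′ with the seed in capitals, and miR-532-5p is named only.
miR-532-3p: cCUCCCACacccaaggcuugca
miR-188-3p: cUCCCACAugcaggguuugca
miR-188-5p: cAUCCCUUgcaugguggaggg
miR-362-3p: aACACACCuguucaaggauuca
miR-362-5p: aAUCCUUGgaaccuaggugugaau
miR-501-3p: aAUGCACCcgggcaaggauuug
miR-501-5p: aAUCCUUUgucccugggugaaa

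MiR-532-3p lies at chrX:7248419-7248440. Its seed was that of no other of the 1679 mature miRNAs in the table. The longest run that it shared with a neighbour was 8 bases with miR-188-3p, which begins at base 2 of miR-532-3p and at base 1 of miR-188-3p, so that the seeds of these arms are shifted by 1 base and are not the same. The sequence of miR-501-3p differed at 4 of 22 positions from that of miR-500-3p, and both have the same seed:
miR-500-3p: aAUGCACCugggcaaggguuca

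Counts on the miRNA probes totalled 70164 to 598321 in tissue, from 100 ng of RNA, and 18350 to 269005 in plasma, from 10 ng. Each sample had its own background level, the mean plus 2 SD of its 8 negative control probes, which was 18.3 to 67.7 counts in tissue and 25.0 to 48.4 in plasma. CS2 and CS3 were shallow, with totals of 36639 and 18350. Of 30 cell type markers in 7 lists, 29 were on the panel.

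MiR-532-5p was near background in control tubes and above it in every metastasis. Its deposited counts were 14, 50, 27, 38 and 14 in CT1 to CT5, of which CT4 alone was above its background level. In FT1 to FT5 they were 141, 267, 13, 53 and 52, and 4 of 5 were above the level, FT3 being below and FT5 within 2 counts of its level of 50.1. In M1, M2, M3, M4 and M6 they were 173, 262, 163, 99 and 190, all above. Even before scaling, the lowest metastasis thus had more counts than the highest control tube.

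Counts were then scaled to the geometric mean of the 100 most abundant tissue miRNAs. Normalized counts of miR-532-5p were 15.3, 32.8, 26.7, 28.3 and 32.8 in CT1 to CT5, a mean of 27.2 ± 7.16 (SD, n = 5). In FT1 to FT5 they were 49.2, 632, 28.1, 105 and 28.3 (169 ± 261, SD, n = 5, median 49.2). FT3 and FT5 lay within the range of the control tubes and FT2 above all metastases. In M1, M2, M3, M4 and M6 they were 463, 244, 449, 239 and 129.7 (305 ± 145, SD, n = 5). The metastases did not overlap with CT, and they overlapped with FT through FT2 alone.

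**Figure D1:**
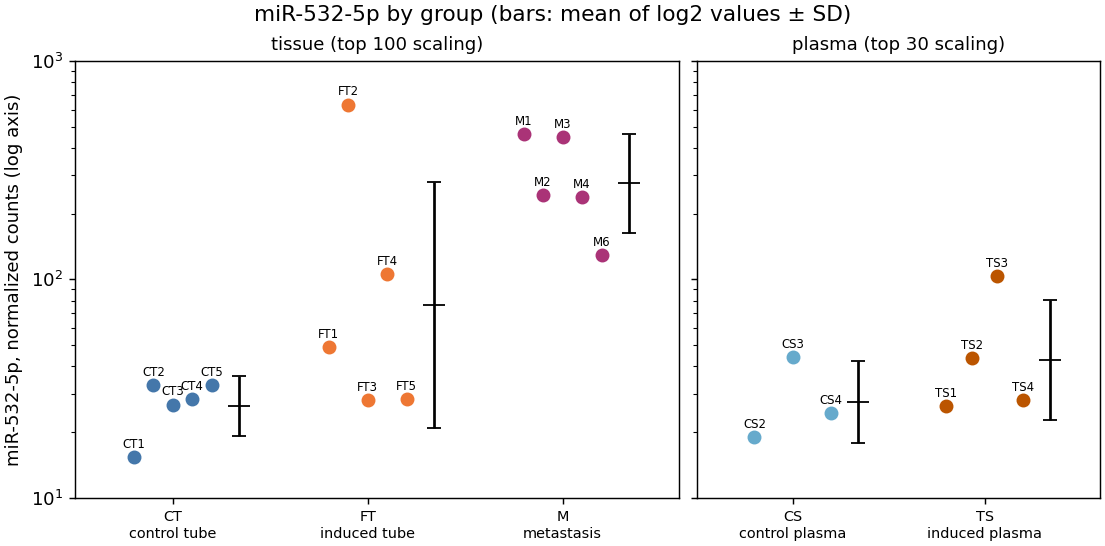
Normalized count of miR-532-5p in each sample on a log axis, by group, with tissue and plasma scaled separately and bars at the mean log2 value ± SD. The 5 metastases sit at 129.7 to 463, above the 5 control tubes at 15.3 to 32.8, while the induced tubes reach from 28.1 to 632.

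In order of mean log2 normalized count, CT stood at 4.71 ± 0.45, FT at 6.26 ± 1.87 and M at 8.10 ± 0.76 (SD, n = 5 each). M minus CT was 3.39 (SE 0.40), a 10.5-fold difference and rank 8 of 566 probes from the top, where the median probe was at 0.17. The groups were fully apart with M higher for 42 of 566 probes, or 7.42%, and since this contrast chose the member nothing is read from that share. FT minus CT was 1.54 (SE 0.86), or 2.91-fold, and ranked 7 of 566 with the median probe at 0.05. M minus FT was 1.85 (SE 0.90), or 3.60-fold. The study states that some metastases came from mice that also gave an induced tube, and others from an earlier publication, without saying which. The SE of M minus FT treats all samples as separate. Both differences with CT share the same 5 control tubes. Of these CT4 alone was above its background level, so the CT side of both folds is mostly background, and their size depends on it.

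The induced tubes spread over a wider range than the control tubes or the metastases. FT2, the only Brca1 -/- tube, was 2.59 above the next highest induced tube on the log2 scale and had 1.37 times the normalized count of the highest metastasis. Without FT2 the difference from the control tubes was 0.78 on the log2 scale, or 1.72-fold. The lowest metastasis, M6, the one labelled as an ovarian tumor, was 3.95 times the highest control tube, CT5, which was below its background level.

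MiR-532-3p, the other strand of the hairpin, was not detected above background in any of the 22 samples. Its deposited counts were 8, 9, 7, 8 and 5 in CT1 to CT5, and 12, 2, 5, 5 and 17 in FT1 to FT5. In M1, M2, M3, M4 and M6 they were 1, 7, 3, 5 and 10. The probe was below the mean of the negative controls in 21 of 22 samples, and it ranked 517 of 566 by mean count, at 6.45, where miR-532-5p ranked 111 at 81.6.

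Normalized counts of miR-532-3p were 7.85 ± 2.45 in CT, 7.79 ± 3.09 in FT and 7.27 ± 3.39 in M (SD, n = 5 each), and the groups overlapped. M minus CT was -0.21 (SE 0.40) and FT minus CT -0.07 (SE 0.34) on the log2 scale. A difference in this arm was not detectable at these counts, which does not show that its level was the same.

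**Figure D2:**
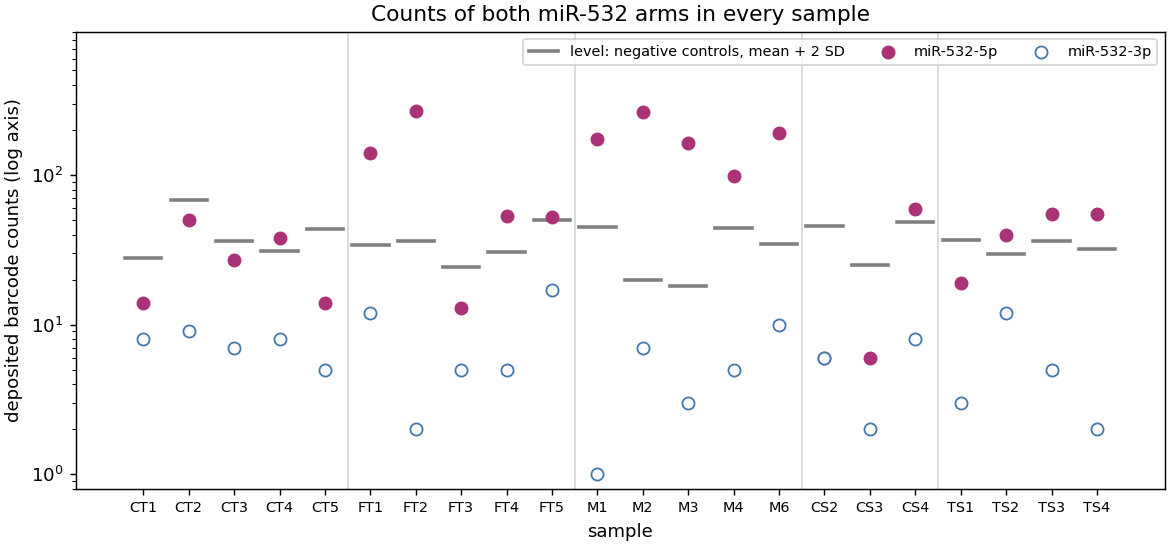
Deposited counts of miR-532-5p and miR-532-3p in each of the 22 samples on a log axis, with each sample's background level drawn as a mark and both arms at the same point in CS2. The 3p arm is under that mark in every sample, while the 5p arm is above it in 4 of 5 induced tubes and 5 of 5 metastases.

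The ratio of deposited 5p to 3p counts within a sample does not depend on scaling. It was 1.75, 5.56, 3.86, 4.75 and 2.80 in CT1 to CT5. In FT1 to FT5 it was 11.8, 133.5, 2.60, 10.6 and 3.06. In M1, M2, M3, M4 and M6 it was 173, 37.4, 54.3, 19.8 and 19.0. All metastases were above all control tubes, and FT3 and FT5 again lay among the control tubes.

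On the log2 scale the ratio was 1.79 ± 0.66 in CT, 3.40 ± 2.28 in FT and 5.40 ± 1.31 in M (SD, n = 5 each). M minus CT, at 3.60, was the largest in size among 65 miRNAs with probes for both arms, whose median absolute difference was 0.81. The 3p arm was at background, so the denominator holds background counts and the ratio follows the 5p arm. In 24 of the 65 pairs exactly 1 arm was never above background in tissue and in another 26 neither arm was ever above it, so most of the ratios ranked here hold background counts. The probes of the arms can differ in efficiency, and the ratio is not a ratio of molecules.

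**Figure D3:**
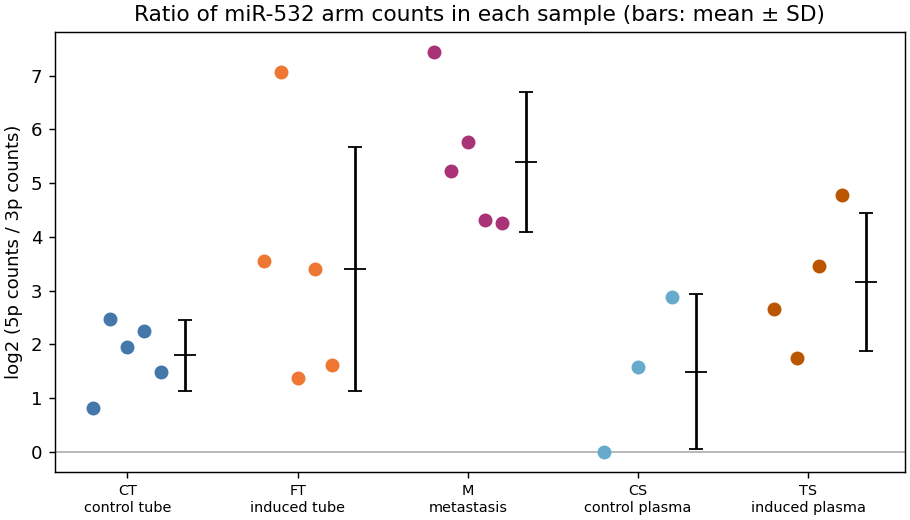
The log2 ratio of deposited miR-532-5p to miR-532-3p counts in each sample, by group, with bars at the mean ± SD. The 5 metastases, with ratios of 19.0 to 173 before taking log2, lie above the 5 control tubes, with ratios of 1.75 to 5.56, and the induced tubes reach over both.

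The 7 probes for the other miRNAs of the cluster, miR-188-3p, miR-188-5p, miR-362-3p, miR-362-5p, miR-500, miR-501-3p and miR-501-5p, were mostly at background. Of their 154 values, 7 were above the sample's background level. In M against CT, 1 of 7 passed edgeR's quasi-likelihood test with Benjamini-Hochberg adjustment over all 566 probes, in the upward direction, where 14.5% of all probes passed, 10.2% higher and 4.24% lower. The 7 log2 fold changes ran from -0.06 to 1.93, with a median of 0.40 beside 0.29 over all probes.

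The neighbour past the threshold was miR-501-3p, 1 of 7 being a share near that of all probes. Its deposited counts were 15, 13, 6, 6 and 10 in CT1 to CT5 and 35, 25, 15, 12 and 40 in M1, M2, M3, M4 and M6. It was above background in M2 and M6 and in no control tube. Normalized counts were 42.9 ± 29.1 in M and 11.7 ± 7.99 in CT (SD, n = 5 each), and the highest control tube, at 23.4, just passed the lowest metastasis, at 23.3. The edgeR log2 fold change was 1.93 (SE 0.54, adjusted p = 0.0217). The adjusted p was 0.0704 with total count scaling, 0.108 with the methods' t-test and 0.0503 with CT, FT and M fitted together. The call also rested on single samples: without CT2, CT3, CT4 or M1 in turn the adjusted p was 0.0686, 0.0738, 0.0715 and 0.0591. Whether the miR-501-3p probe also reads miR-500-3p was not tested.

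In FT against CT none of the 7 passed edgeR's test, nor did any have an unadjusted p under 0.05, where 0.177% of all probes passed and 7.24% had such a p. Their log2 fold changes lay between -0.42 and 1.05, with a median of 0.36 beside 0.15 over all probes. The 7 neighbours thus gave 1 call over both tissue comparisons.

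**Figure D4:**
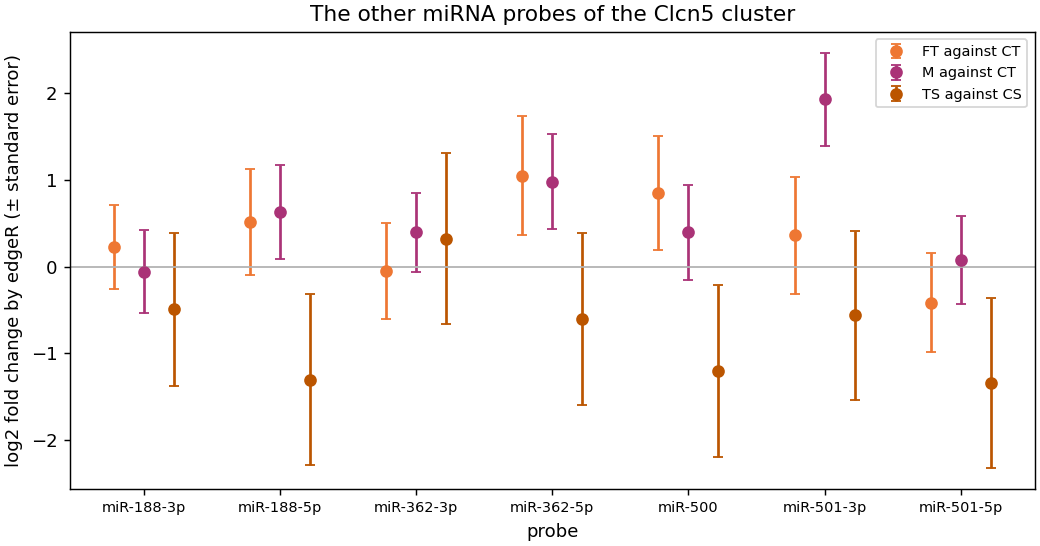
edgeR log2 fold changes with their SE for the 7 cluster probes in 3 comparisons, FT against CT, M against CT and TS against CS. MiR-501-3p in M against CT, at 1.93, is the value that passed the adjusted threshold.

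Across the 15 tissue samples the Pearson correlation of log2 normalized counts with miR-532-5p was 0.77 for miR-501-3p, 0.63 for miR-362-5p and 0.55 for miR-188-5p. It was between 0.07 and 0.33 for miR-500, miR-501-5p, miR-188-3p and miR-362-3p, and -0.35 for miR-532-3p. The samples share their scaling and differ by group, and most of these probes were near background, so the values are a description.

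Among the 135 probes with a mean count of at least 50, the miRNAs whose pattern over these 15 samples was most like that of miR-532-5p were miR-22 (r = 0.96), miR-210 (r = 0.95), miR-1224 (r = 0.94), miR-378 (r = 0.93) and miR-2141 (r = 0.92). MiR-210, known as a miRNA induced by hypoxia, had normalized counts of 53.5 to 92.1 in CT and 441 to 1635 in M, with FT2 at 1732 and the other induced tubes at 42.5 to 374. MiR-22 had 1071 to 2089 in CT and 6519 to 11129 in M, with FT2 at 16178. FT2 was above all metastases for miR-22, miR-210 and miR-378, as it was for miR-532-5p. For miR-1224 and miR-2141 it was not, at 2563 against up to 13486 in M and 5848 against up to 9481. The lowest correlation was that of miR-29c, at -0.93. For miR-532-3p the highest were miR-144 (r = 0.63), miR-1960 (r = 0.56) and miR-192 (r = 0.54), with the 3p arm itself at background.

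The panel also carries probes for 4 housekeeping mRNAs, Actb, B2m, Gapdh and Rpl19, and their counts per miRNA count were higher in M than in CT, as was miR-532-5p. The share was 0.0149 to 0.0462 in CT and 0.0693 to 0.474 in M. In FT1 to FT5 it was 0.118, 0.315, 0.0077, 0.12 and 0.02. FT2 had the highest share among induced tubes and FT3 and FT5 the lowest, the same tubes that were highest and lowest for miR-532-5p. Within the other groups the order differed: M4 had the highest share of all, 0.474, with the second lowest miR-532-5p of the metastases, and CT3 the highest share of the control tubes with 26.7 normalized counts. The part of this in the miR-532-5p values was not tested.

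**Figure D5:**
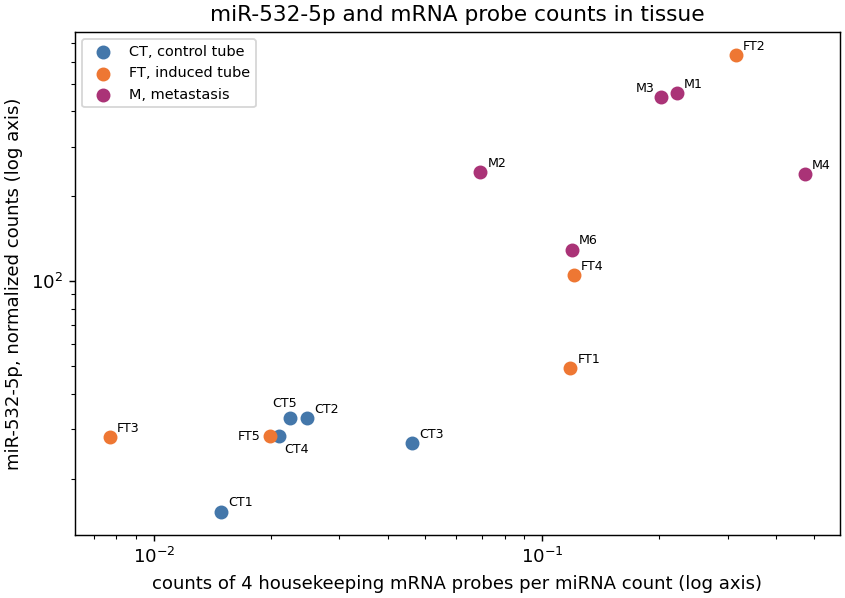
Normalized count of miR-532-5p against housekeeping mRNA counts per miRNA count in the 15 tissue samples, both on log axes. FT2 lies at 632 and 0.315, above the metastases and within their range of mRNA counts, and FT3 and FT5 lie at 28.1 and 28.3, as low as the control tubes.

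Cell type markers differed between M and CT as well, where 10.2% of all probes were called higher and 4.24% lower. Of the ciliated cell markers, 4 of 5 were lower in M by edgeR, with summed normalized counts of 27.9 to 88.3 against 312 to 3767, and FT2 at 94.7. Of the muscle and stromal markers 3 of 5 were lower, miR-143, miR-145 and miR-1, with sums of 626 to 3821 against 4713 to 13280. The others, miR-133a and miR-133b, did not pass. Of 5 leukocyte markers miR-223 was higher, with sums of 967 to 6301 against 593 to 1164. MiR-486 of 4 erythrocyte markers (sums of 2233 to 14358 against 2881 to 4771), miR-122 of 3 liver markers (64.2 to 587 against 66.2 to 93.7) and miR-126-3p of 2 endothelial markers were also higher. The other endothelial marker, miR-126-5p, had a log2 fold change of -0.83 (adjusted p = 0.274). Of 5 epithelial markers miR-141 was lower, with sums of 242 to 42010 against 9285 to 11038, while the median log2 fold change of the 5 was 0.01. The endothelial sum was 7887 to 19897 in M and 4224 to 6683 in CT, with FT2 at 55041. In FT against CT 1 of the 3 liver markers was higher and none of the others passed, where 0.177% of all probes were called. The part of these cell types in the miR-532-5p values was not tested.

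Plasma was compared to ask whether miR-532 differed in the blood of tumor-bearing mice. Deposited counts of miR-532-5p were 6, 6 and 59 in CS2 to CS4 and 19, 40, 55 and 55 in TS1 to TS4. Above background were CS4 among control mice and all but TS1 among tumor-bearing mice. The counts of CS2 and CS3 were below the mean of their negative controls, 17.25 and 10.5, so their scaled values below are background. This limits what the plasma comparison can show. Scaled to the 30 most abundant plasma miRNAs, they were 19.1, 44.3 and 24.5 in CS (29.3 ± 13.3, SD, n = 3) and 26.2, 43.5, 103 and 28.1 in TS (50.3 ± 36.2, SD, n = 4). The groups overlapped.

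For miR-532-5p the edgeR log2 fold change of TS against CS was 0.83 (SE 0.91, adjusted p = 0.624). The difference in mean log2 normalized counts was 0.64 (two-sided exact permutation p = 0.371, where 0.0286 is the smallest that 4 against 3 samples allow). No probe of the 566 passed edgeR's adjusted threshold in plasma, 0% of the panel, while 42 had an unadjusted p under 0.05. The median probe was at -0.89, and at 0.10 among probes with a mean count of at least 20. Plasma differences depended on the scaling: the mean log2 difference of miR-532-5p was 0.11 with total counts and 2.15 with positive ligation controls.

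MiR-532-3p was below background in all plasma samples, with counts of 6, 2 and 8 in CS2 to CS4 and 3, 12, 5 and 2 in TS1 to TS4. Its normalized counts were 12.4 ± 8.14 (SD, n = 3) and 6.90 ± 5.36 (SD, n = 4). The edgeR log2 fold change was -0.68 (SE 0.97, adjusted p = 0.707), and the difference in mean log2 values was -1.04 (two-sided exact permutation p = 0.429). The edgeR fold change turned direction under several other scalings, and the mean log2 difference did so with positive ligation controls alone. The plasma 5p to 3p count ratio was 1, 3 and 7.38 in CS and 6.33, 3.33, 11 and 27.5 in TS, again over a denominator at background.

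None of the 7 cluster probes passed edgeR's test in plasma or had an unadjusted p under 0.05, with log2 fold changes of -1.34 to 0.32 and a median of -0.60. Without CS4, the only control plasma that was not shallow, 3 of the 7 passed, as did 203 of 566 probes.

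Tube and plasma of the same mouse can be set side by side, though they were scaled apart. The mouse with the highest tube value, FT2 at 632, had 26.2 in plasma (TS1), the lowest value of its group. The mouse with the highest plasma value, TS3 at 103, had 105 in its tube (FT4). For the mice of FT3 and FT5 the tube values were 28.1 and 28.3 and the plasma values 43.5 and 28.1. With 4 such mice no relation was tested.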

How the data were processed

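MiRNAs of 15 tissue and 7 plasma samples were measured with the NanoString nCounter mouse miRNA panel. The authors deposited raw barcode counts for 626 probes, 566 of them mouse miRNAs, with no normalization. The study's methods normalized tissue values without subtracting background. Whether a ligation correction came before deposit is not given in the sources used here. Samples were grouped by GEO's labels. Nothing in the sources used here says that all metastases came from separate mice, so p-values measure the spread between these samples. An M and a CS sample that the study left out were not analysed here. The rest of the genotypes is not reported here.

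For each sample a geometric mean was taken over the 100 (tissue) or 30 (plasma) miRNAs with the highest mean count in that class. Normalized counts are counts over this value, times its average over the class. A value was above background over the mean plus 2 SD of 8 negative controls. Count tests used edgeR 4.0.16 in R 4.3.3 (glmQLFit, glmQLFTest), the geometric means as library sizes and Benjamini-Hochberg adjustment over 566 probes at 0.05. Exact permutation tests went through every split of the plasma samples, 35 with all samples kept, with numpy 2.4.6 in Python 3.11.15. Alternatives used DESeq2 1.42.0, limma 3.58.1, the methods' t-test, other scalings, filters, pseudocounts, background subtraction and samples left out. The methods' t-test was run here on log2 values with Benjamini-Hochberg adjustment, which the study's methods do not mention. The edgeR code was tested on simulated data, and the DESeq2 and limma code was not.

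Named were both arms, the 7 cluster probes, and the 5 and 3 miRNAs most correlated with each arm. Up to 3 pairs with a larger arm ratio difference were to be named, and there were none. Probes sharing a seed were looked for with miR-532-3p alone, since the source used held no sequence of miR-532-5p. The members and lists were chosen with earlier results of these data known. Sequences and positions are from RefSeq (GRCm38.p6).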

Additional observations from a re-analysis of the deposited data

Results flagged for a closer look

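The normalized count of miR-532-5p in FT2, 632, stood apart from the other induced tubes. The gap to the next tube was 0.872 of the range of the 5 tubes, above the critical value of 0.71 for 5 samples. On the log2 scale the gap was 0.576 of the range, below that value. The level of miR-532-5p in these tubes helped to choose it, so this is a description of 1 sample and no test of the group. Such a gap was looked for in 12 groups of values, and chance gives about 1 in 20 groups one. FT2 also had the highest endothelial marker sum among tissues, 55041, and the highest housekeeping mRNA share among induced tubes, 0.315, and their part in the value was not tested.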

How the results depend on the processing

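Of 226 alternative values, 194 were judged unchanged with no change of sign. Another 8, all of miR-532-3p in tissue, changed sign within the spread between replicates. A tested value was unchanged if it kept its direction and side of the threshold. An untested difference was unchanged if it moved by less than the larger group SD, and a count of calls if it stayed equal. MiR-532-5p was higher in M than in CT by 2.90 to 5.23 (log2) under every alternative. The value of 5.23 was with negative controls subtracted, when miR-532-3p moved to 0.64. Values under 1 after that subtraction were set to 1. This was so for miR-532-3p in every tissue sample, so its 0.64 reflects scaling alone, and for miR-532-5p in CT5, which enters the 5.23. The FT minus CT difference of miR-532-5p ran from 0.97 to 2.69, and from 0.78 to 1.90 with a tube left out. In plasma, miR-532-5p gave edgeR log2 fold changes of 0.23 to 1.29 (adjusted p 0.292 to 0.999), and 0.24 (without TS3) to 1.17 with a sample left out. Its mean log2 difference ran from 0.11 with total counts to 2.15 with positive ligation controls, and with miR-425 scaling the exact permutation test gave 1.11 (p = 0.0286, the smallest possible). MiR-532-3p in plasma turned direction to 0.048 with TMM, 0.14 with DESeq2 size factors and 0.38 with positive ligation controls (0.47 as a mean log2 difference), and ran from -1.72 to 0.10 with a sample left out. The single cluster call in M against CT became 0 with total counts, the methods' t-test or a joint fit of CT, FT and M, and 0 to 1 with a sample left out. In plasma the cluster count was 0 to 3 with a sample left out, 3 without CS4. The cause was not tested.

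Sample numbers join different mice in CT, FT and M, and deviations of same-numbered samples correlated at -0.343 to 0.389, so the numbers were not taken as pairs. With the number as a replicate block, miR-532-5p in plasma gave 0.78 (adjusted p = 0.292) and miR-532-3p -0.86 (adjusted p = 0.267), 1 cluster probe passed in plasma, and 0, 69 and 96 of all probes passed in FT, M and TS, against 1, 82 and 0 without it. The block fit kept only numbers found in both groups, M1 to M4 with CT1 to CT4 and TS2 to TS4 with CS2 to CS4. In M and TS these counts thus differ in samples as well as in the block. Calls in M against CT ran from 32 with the methods' t-test, adjusted here over all probes, to 162 with DESeq2 size factors. The all-probe median ran from -0.19 to 0.66. The study's methods name no such adjustment, so 32 is not the study's count. A minimum mean count of 50 left no plasma value for miR-532-5p, and 20 none for miR-532-3p. Counts near background limit what the 3p arm, the cluster, and miR-532-5p in control tubes and plasma can show.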
